A study of Mus musculus with 4 samples.

Results

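Activins and transforming growth factors beta (TGF-beta) are secreted dimeric proteins of one superfamily, and the genes examined here encode their ligand subunits, antagonists and receptors. All 9 named genes (Inhba, Inhbb, Fst, Fstl3, Tgfb1, Tgfb2, Tgfb3, Tgfbr1 and Tgfbr2) were matched by symbol to rows of the deposited expression table, out of 24972 rows in all. RNA came from the mandibular dental arch, the part of the lower jaw that bears the tooth germs, of mouse embryos at embryonic day 17.5. There were 2 libraries from embryos homozygous for a variant of Ascl5 (Ascl5Mut/Mut, libraries 18 and 14, called mutant) and 2 from Ascl5WT/WT embryos (libraries 15 and 20, called wild type). The Ascl5 protein is a transcription factor of the basic helix-loop-helix class, and the series compares the genotypes to find genes whose expression differs in developing mandibular teeth. The labels do not give strain, litter, sex or how the variant was made, nor whether a library holds 1 embryo or several, and p-values therefore reflect only the spread among these libraries, part of which may be technical.

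Activin signalling is required for tooth development: mice without Inhba lack incisors and mandibular molars, and Inhba is made mainly by the mesenchyme beneath the tooth epithelium. Activins and TGF-betas bind a type II receptor, which recruits and activates a type I receptor, and this phosphorylates Smad2 and Smad3. Follistatin, the product of Fst, and its relative encoded by Fstl3 bind activins and keep them from their receptors, while TGF-betas are secreted in a latent form, stored in matrix such as bone, and released locally.

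Values are normalized counts as deposited, which sum to 22506528 and 22134483 in mutant libraries 18 and 14 and to 22352722 and 22578580 in wild-type libraries 15 and 20. Ascl5 itself was at 10.6 and 12.1 in mutant libraries 18 and 14, against 21.8 and 37.3 in wild-type libraries 15 and 20. Mutant library 14 stood apart from the others on the first principal component, which held 41.9% of the variance. It alone held abundant RNA of salivary gland genes. Smgc, a submandibular gland protein gene, was at 0.953 and 4219 in mutant libraries 18 and 14, against values of 0 in wild-type libraries 15 and 20, and Bpifa2, a salivary protein gene, was at 1009.0 in mutant 14 and listed at 0 in the other 3. Xist, made by the inactive X chromosome of female cells, was at 7.64 and 5.005 in mutant libraries 18 and 14 and at 38619 and 12.7 in wild-type libraries 15 and 20, so wild type 15 alone had a female pattern. Enamel, dentin and dental mesenchyme markers were detected in every library, among them Amelx at 2421 and 868 in mutant and 263 and 1621 in wild type, Dspp at 1910.2 and 629 in mutant and 687 and 1346 in wild type, and Barx1 at 588 and 579 in mutant and 955 and 1030.2 in wild type (libraries 18 and 14, then 15 and 20). These genes show detection only and do not stand for their lists. Log2 fold changes, mutant over wild type, were below 0 for 5 of 7 enamel, 3 of 6 dentin and 6 of 8 dental mesenchyme markers.

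Ascl proteins belong to a family that binds DNA at E-boxes, sites spelled CANNTG, so the sequence just upstream of the genes is shown for Fstl3 and Tgfb2, whose windows hold such letters, and for Inhba and Tgfb1, the pair with the lowest values in mutant relative to wild type. Of the 9 genes, 7 have an entry in the RefSeq promoter table for GRCm38.p6 (the build named mm10), with 8 start sites between them, while Fst and Tgfb3 were not matched. Each sequence below is the 250 bases before the start, 5′ to 3′ on the gene's own strand, with E-boxes in capitals. They are Fstl3 at chr10:79777024-79777273 (plus strand), Tgfb2 at chr1:186705990-186706239 (minus strand), Inhba at chr13:16011601-16011850 (plus strand) and Tgfb1 at chr7:25686752-25687001 (plus strand).
Fstl3: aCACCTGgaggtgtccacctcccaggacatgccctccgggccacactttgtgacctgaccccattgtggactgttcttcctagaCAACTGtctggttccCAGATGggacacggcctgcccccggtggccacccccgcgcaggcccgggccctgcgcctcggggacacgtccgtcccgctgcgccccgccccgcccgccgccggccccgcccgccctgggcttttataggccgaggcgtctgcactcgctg
Tgfb2: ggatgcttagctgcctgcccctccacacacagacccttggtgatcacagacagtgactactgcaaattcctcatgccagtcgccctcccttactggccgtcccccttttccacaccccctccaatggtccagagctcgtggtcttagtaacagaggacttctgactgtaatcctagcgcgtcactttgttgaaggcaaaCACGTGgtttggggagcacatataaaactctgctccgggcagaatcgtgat
Inhba: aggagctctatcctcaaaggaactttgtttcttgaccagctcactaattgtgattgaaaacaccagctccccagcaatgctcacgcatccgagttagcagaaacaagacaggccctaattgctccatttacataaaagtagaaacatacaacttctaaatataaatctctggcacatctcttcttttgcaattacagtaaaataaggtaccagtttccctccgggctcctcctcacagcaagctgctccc
Tgfb1: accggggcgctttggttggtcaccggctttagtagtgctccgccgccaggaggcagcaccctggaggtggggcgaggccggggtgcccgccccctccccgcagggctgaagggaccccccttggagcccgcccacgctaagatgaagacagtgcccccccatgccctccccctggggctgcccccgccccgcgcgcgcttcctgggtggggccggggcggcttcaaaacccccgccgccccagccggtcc

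The Fstl3 stretch held 3 E-boxes, which were CACCTG at 249 bases before the start, CAACTG at 166 and CAGATG at 151, and the Tgfb2 stretch held 1 (CACGTG at 51 bases before the start). No E-box letters were found in the windows of Inhba, Inhbb, Tgfb1 or Tgfbr2, nor at the first start of Tgfbr1, while its second start had 1 (CATTTG). An E-box was present in 66.2% of all 32851 windows of the same length, searched on both strands. The Ascl-type E-box CAGCTG was found in none of the 8 windows of these genes, against 13.0% of all windows. The 5-letter Smad box CAGAC was found on either strand in the windows of Fstl3 (2), Tgfb2 (2), Tgfbr2 (1) and the second Tgfbr1 start (1), and in 42.2% of all windows. A match is a string of letters and not a measured binding site.

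The ligand genes Inhba and Tgfb1 had the smallest p-values of the 9, both with lower values in mutant. The ligand gene Inhbb, the antagonists and the receptors overlapped between genotypes. No member passed the threshold of 0.05 after Benjamini-Hochberg adjustment over all 17979 genes tested with limma, where 0.0111% of genes passed. At an unadjusted p under 0.05 there were 2 members of 9, both lower in mutant, against 4.27% of all genes. Log2 fold changes (mutant over wild type) were below 0 for 7 of the 9 members, against 49.4% of all genes. Both mutant libraries lay below both wild-type libraries for 4 members, all of them ligand genes, against 14% of all genes. This count was 3 with each library scaled to the same total. Both mutant libraries lay above both wild-type libraries for 0 members, against 13.4% of all genes. For a single gene, 0.333 is the smallest p that an exact two-sided permutation test can reach with 2 libraries per genotype. The limma p-values come instead from a fitted model that shares variance across genes. Members were chosen with earlier results of these data known, so their shares beside those of all genes are descriptions only. In bulk tissue, fewer cells of a type and less RNA per cell cannot be told apart.

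**Figure D1:**
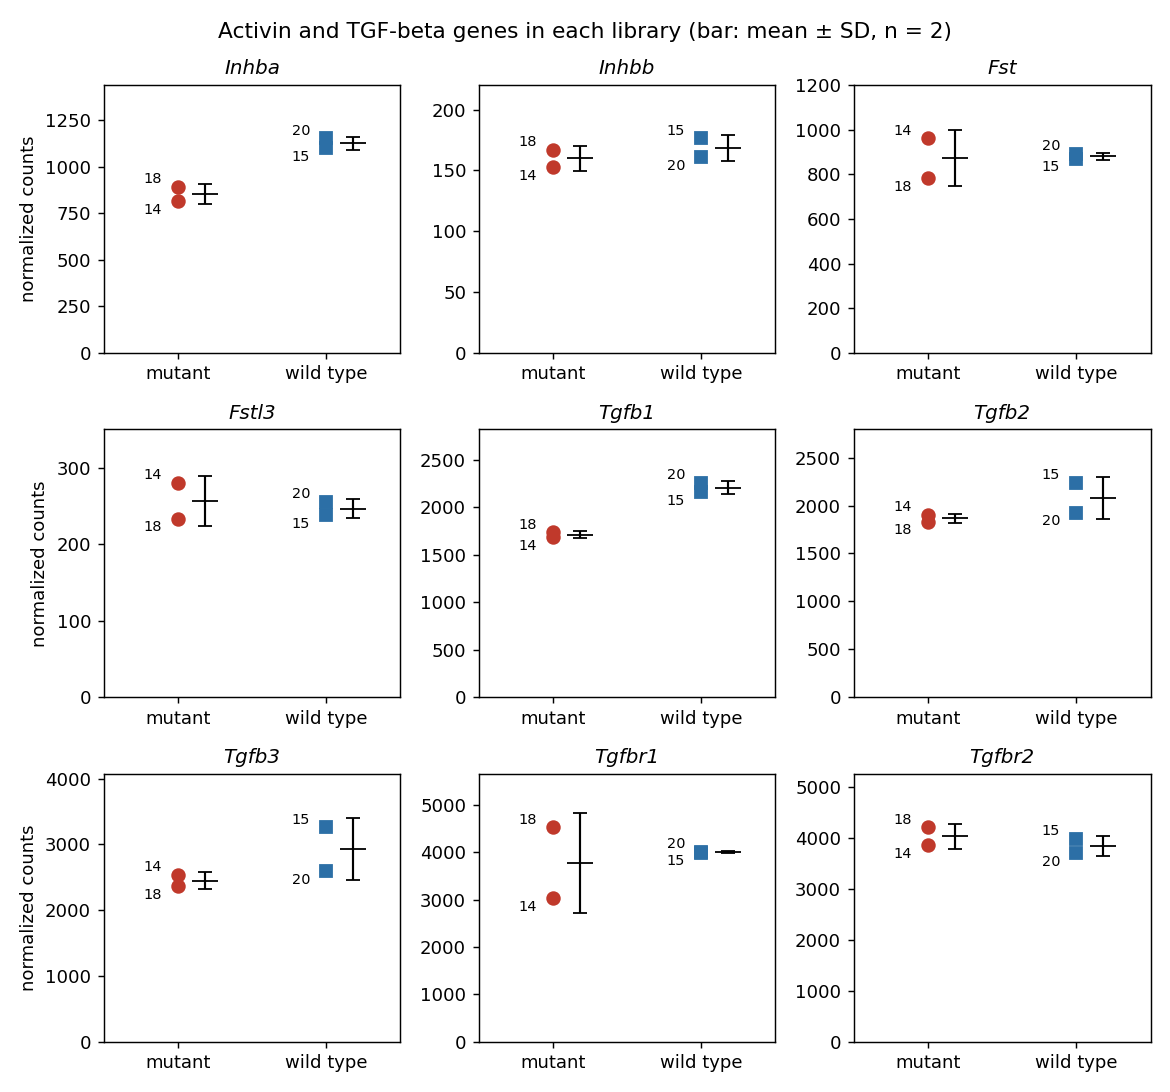
Normalized counts (vertical axes, from 0) of the 9 genes in 2 mutant libraries (red circles, 18 and 14) and 2 wild-type libraries (blue squares, 15 and 20), with black bars for the mean ± SD (n = 2). The genotypes are apart for Inhba and Tgfb1, nearly touch for Tgfb2 and Tgfb3, and overlap for Inhbb, Fst, Fstl3, Tgfbr1 and Tgfbr2.

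Inhba (chromosome 13, 16011851 to 16031621, GRCm38) encodes the beta A subunit, which pairs with itself to form activin A. It was at 893 and 814 normalized counts in mutant libraries 18 and 14, against 1101 and 1152 in wild-type libraries 15 and 20. Both mutant libraries were below both wild-type libraries, and the gap between genotypes was wider than the spread within either. The means were 854 ± 55.6 in mutant and 1126 ± 35.9 in wild type (SD, n = 2 each), a fold of 0.757 (log2 fold change -0.40, SE 0.14, 95% interval -0.72 to -0.081). The limma p was 0.0204 unadjusted and 0.933 adjusted.

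Inhbb (chromosome 1, 119415465 to 119422248) encodes the beta B subunit of activin B and, like Tgfb2, lies on the same chromosome as Ascl5. It was at 167 and 153 in mutant libraries 18 and 14, against 176 and 161 in wild-type libraries 15 and 20. The genotypes overlapped, with mutant 18 above wild type 20. The log2 fold change was -0.077 (SE 0.21, 95% interval -0.57 to 0.42; limma, adjusted p = 0.9999), an interval that reaches from a fold of 0.671 to one of 1.34.

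Fst (chromosome 13, 114452290 to 114458951) encodes follistatin, which binds activins almost irreversibly and, in mouse incisors, is known for restraining ameloblast formation on the tongue side. Its level was 785 and 961 in mutant libraries 18 and 14, against 870.3 and 892 in wild-type libraries 15 and 20. The mutant libraries were the lowest and the highest of the 4, and the wild-type libraries lay between them. The log2 fold change was -0.021 (SE 0.15, 95% interval -0.38 to 0.34; limma, adjusted p = 0.9999). Fstl3 (chromosome 10, 79777272 to 79782630), whose product binds activins and myostatin, had the same order of libraries. It was at 234 and 280.4 in mutant libraries 18 and 14, against 238 and 255 in wild-type libraries 15 and 20 (log2 fold change 0.053, SE 0.196, 95% interval -0.40 to 0.51; limma, adjusted p = 0.9999). Of its 1955 exonic bases, 1157 are shared with Prss57 on the opposite strand, and whether the authors counted by strand is not given in the sources used here. Prss57 averaged 1.76 normalized counts over the 4 libraries.

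Relative to Fst, Inhba was lower in both mutant libraries. The ratio of Inhba to Fst, each per kb of exon, was 0.505 and 0.376 in mutant libraries 18 and 14, against 0.561 and 0.572 in wild-type libraries 15 and 20. The ratio of Inhba to Fstl3 was 1.17 and 0.889 in mutant libraries, against 1.41 and 1.38 in wild-type libraries, and that of Inhba to Inhbb 3.56 and 3.55, against 4.16 and 4.76 (same library order). None of these 3 ratios overlapped between genotypes. Each had the smallest p that an exact two-sided permutation test allows (0.333), which was 0.444 when adjusted over the 8 ratios between members that were computed, so none passed. Any ratio without overlap between genotypes reaches that p. The log2 fold change was -0.40 for Inhba, against -0.021 for Fst, 0.053 for Fstl3 and -0.077 for Inhbb. These ratios therefore largely repeat the values of Inhba, and ratios between other genes were not computed.

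Tgfb1 (chromosome 7, 25687002 to 25705077) encodes TGF-beta1, abundant in bone matrix and released there when osteoclasts resorb it. It was at 1735 and 1681 in mutant libraries 18 and 14, against 2154 and 2254 in wild-type libraries 15 and 20. The 2 mutant values differed little from each other and both lay well below the wild-type pair. The means were 1708 ± 38.1 in mutant and 2204 ± 70.8 in wild type (SD, n = 2 each), a fold of 0.775 (log2 fold change -0.37, SE 0.13, 95% interval -0.66 to -0.073). The limma p was 0.0207 unadjusted and 0.933 adjusted.

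Tgfb2 (chromosome 1, 186622792 to 186705989), whose loss in mice causes craniofacial and heart defects, was at 1833 and 1901 in mutant libraries 18 and 14, against 2235 and 1925 in wild-type libraries 15 and 20. The mutant values were the lower pair, but mutant 14 was close to wild type 20, and with each library scaled to the same total the genotypes overlapped. The log2 fold change was -0.15 (SE 0.14, 95% interval -0.47 to 0.17; limma, adjusted p = 0.9999). Tgfb3 (chromosome 12, 86056745 to 86079041), needed for fusion of the palate, was at 2359.8 and 2541 in mutant libraries 18 and 14, against 3257 and 2597 in wild-type libraries 15 and 20. Here too mutant 14 and wild type 20 were close, and wild type 15, the library with a female pattern, was the highest. The log2 fold change was -0.25 (SE 0.15, 95% interval -0.60 to 0.11; limma, adjusted p = 0.9999), with -0.085 when wild type 15 was left out and -0.41 when wild type 20 was. For Tgfb2 these values were -0.044 and -0.26.

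Summed per kb of exon, the 3 TGF-beta ligand genes came to 1848 and 1889.6 normalized counts per kb in mutant libraries 18 and 14, against 2383 and 2174 in wild-type libraries 15 and 20. The mix of the 3 overlapped between genotypes for Tgfb1, which made up 43.2% and 40.9% of that sum in mutant and 41.6% and 47.7% in wild type. Tgfb2 made up 19.1% and 19.3% in mutant and 18.04% and 17.03% in wild type, and Tgfb3 the remainder. The ratio of Tgfb1 to Tgfb2 was 2.26 and 2.11 in mutant libraries 18 and 14, against 2.30 and 2.80 in wild-type libraries 15 and 20, and that of Tgfb3 to Tgfb2 was 1.98 and 2.05, against 2.24 and 2.07. Both were lower in mutant without overlap (exact two-sided permutation test, p = 0.333 each), while the ratio of Tgfb1 to Tgfb3 overlapped at 1.14 and 1.03 in mutant and 1.03 and 1.35 in wild type (exact two-sided p = 1.0).

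Tgfbr1 (chromosome 4, 47353222 to 47414931) encodes ALK5, the type I receptor for TGF-beta. Its level was 4527 and 3030.1 in mutant libraries 18 and 14, against 3992 and 4015 in wild-type libraries 15 and 20. The mutant pair held the highest and the lowest value and differed by a coefficient of variation of 28.0%, against 0.411% in wild type. The log2 fold change was -0.11 (SE 0.19, 95% interval -0.56 to 0.34; limma, adjusted p = 0.9999), and its direction turned with the library left out, at 0.18 without mutant 14 and -0.40 without mutant 18. Tgfbr2 (chromosome 9, 116084293 to 116175360) encodes the type II receptor, whose deletion in cranial neural crest disturbs palate and jaw development in mice. It was at 4205 and 3861 in mutant libraries 18 and 14, against 3977 and 3701 in wild-type libraries 15 and 20. The genotypes overlapped, with mutant 14 between the wild-type libraries (log2 fold change 0.071, SE 0.13, 95% interval -0.24 to 0.38; limma, adjusted p = 0.9999). The ratio of Tgfb1 to Tgfbr2, each per kb, was 1.55 and 1.64 in mutant libraries 18 and 14, against 2.04 and 2.29 in wild-type libraries 15 and 20. The ratio of Tgfbr1 to Tgfbr2 was 1.37 and 1.002 in mutant libraries, against 1.28 and 1.38 in wild-type libraries. The first ratio did not overlap between genotypes and the second did (exact two-sided permutation test, p = 0.333 and p = 0.667).

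**Figure D2:**
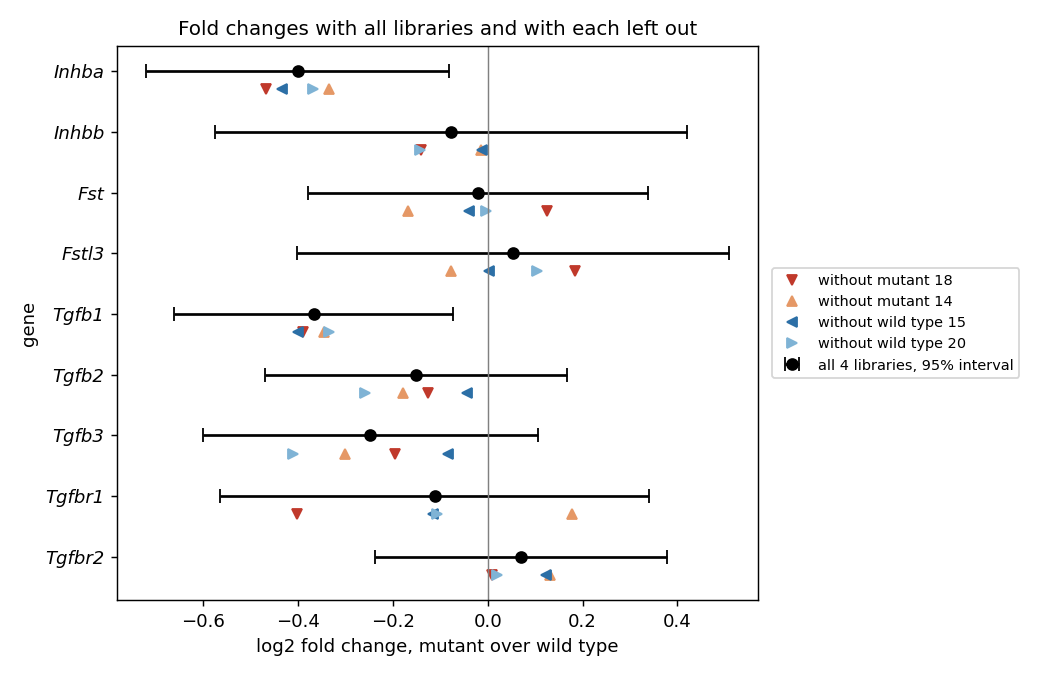
Log2 fold change of each gene, mutant over wild type (horizontal axis), with all 4 libraries (black, bars for the 95% interval) and with each library left out (coloured triangles). The intervals of Inhba (-0.72 to -0.081) and Tgfb1 (-0.66 to -0.073) lie below 0 and the other 7 span it, and the values of Tgfbr1 lie on both sides of 0.

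Every member was expressed in every library, and per kb of exon the levels spanned a wide range. In mutant libraries, Tgfb1 averaged 785 ± 17.5 normalized counts per kb, Tgfb3 724 ± 37.9, Tgfbr1 589 ± 165, Tgfbr2 493 ± 29.7, Tgfb2 359 ± 9.21, Fst 308 ± 44.1, Inhba 134 ± 8.70, Fstl3 131 ± 16.9 and Inhbb 37.6 ± 2.36 (SD, n = 2). In wild-type libraries the order of the means was the same, from 1013 ± 32.6 for Tgfb1 to 39.6 ± 2.52 for Inhbb. No neighbours in that order overlapped in wild type. In mutant, 3 neighbouring pairs did: Tgfb3 with Tgfbr1, Tgfbr1 with Tgfbr2, and Inhba with Fstl3. Inhba averaged 176 ± 5.61 per kb in wild type, above Fstl3 at 126 ± 6.26, whereas in mutant library 14 Fstl3 (143) exceeded Inhba (127).

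**Figure D3:**
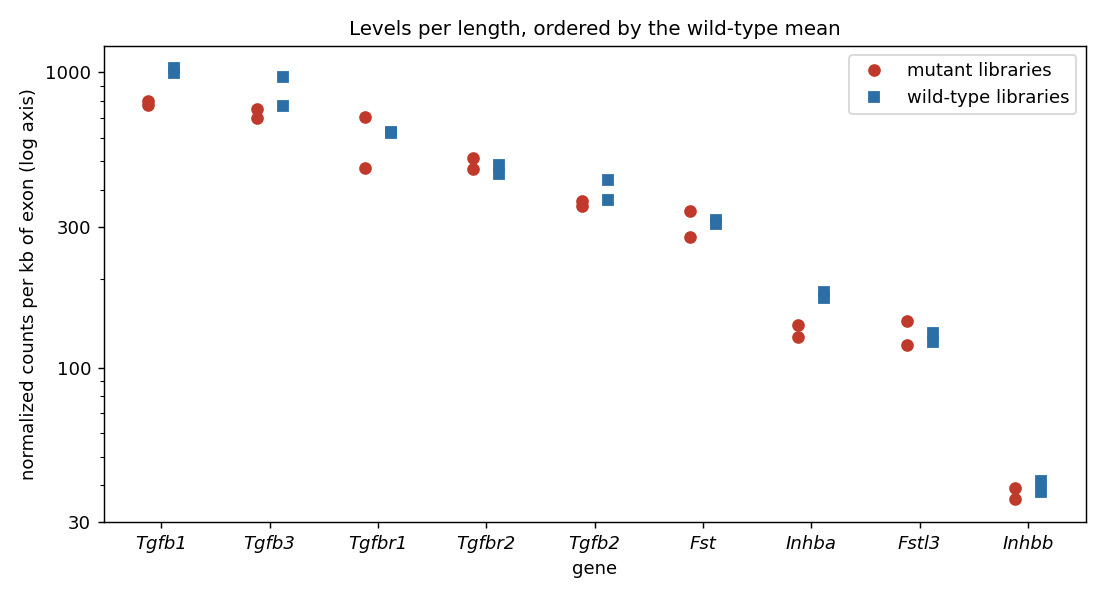
Normalized counts per kb of exon (log axis) for each gene in mutant (red circles) and wild-type (blue squares) libraries, ordered by the wild-type mean. Tgfb1 is the highest and Inhbb the lowest in all 4 libraries, and the 2 mutant libraries are far apart for Tgfbr1 (706 and 472).

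Some members had similar values over the 4 libraries, relative to their own means. Likeness was measured as the root mean square difference between log2 values, each centred on the gene's own mean. This difference is also small between genes that barely change, so it does not measure whether genes vary together. Among the 36 pairs of members it ranged from 0.035 for Inhba and Tgfb1 to 0.312 for Fst and Tgfbr1, with a median of 0.175. The next closest pairs were Fst with Fstl3 (0.045) and Tgfb2 with Tgfb3 (0.065). Of 12483 other genes with a mean of at least 100, 7 were nearer to Inhba than Tgfb1 was, and 14 were nearer to Tgfb1 than Inhba was. There were 180 nearer to Fst than Fstl3 was and 745 nearer to Tgfb2 than Tgfb3 was. These pairs were picked as the closest of the 36. The genes nearest to Inhba were Shisa3 (0.0102) and Fam102a (0.0235), and those nearest to Tgfb1 were Fads2 (0.00894) and Tnfaip2 (0.0136). Shisa3 was at 254 and 231 in mutant libraries 18 and 14, against 317 and 332 in wild-type libraries 15 and 20. The nearest pairs were Sbno1 and Rundc1 for Inhbb, Hdac5 and Fbxw9 for Fst, Unc45a and Echdc2 for Fstl3, and Snx30 and Efhd2 for Tgfb2. They were Gm21992 and Dennd3 for Tgfb3, Got1 and Tigd4 for Tgfbr1, and Togaram1 and Nek7 for Tgfbr2. With 4 libraries many genes share a profile, so these names describe the libraries only.

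Other genes of the pathway were read from the same fit, in lists that were likewise chosen with earlier results of these data known. Of 61 such genes in 5 lists, 58 were tested and none passed with limma, at the adjusted threshold or at an unadjusted p under 0.05. Both mutant libraries lay below both wild-type libraries for 9 of the 58 (15.5%, against 14% of all genes) and above for 6 (10.3%, against 13.4%). Their median log2 fold change was -0.045, against 0.0025 over all tested genes and -0.11 over the 9 members.

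Over all tested genes, 49.4% had a log2 fold change below 0, and 14% were lower and 13.4% higher without overlap. Among other ligands, 3 of 7 tested genes had a log2 fold change below 0, and 1 was lower and 1 higher without overlap. Gdf11, a ligand close to myostatin, was at 462 and 537 in mutant libraries 18 and 14, against 603 and 607 in wild-type libraries 15 and 20. Lefty1, an inhibitor of Nodal, was higher in mutant at 39.9 and 41.7, against 22.6 and 35.3. Inhbc, Inhbe and Gdf3 were at or under 1 normalized count in every library and were not tested. Of 7 other receptors 3 were below 0, and the single one without overlap was the activin type II receptor Acvr2a, higher at 1288 and 1360.2 in mutant libraries 18 and 14, against 1274 and 1027 in wild-type libraries 15 and 20. Of 11 genes for the latency and activation of TGF-beta 7 were below 0. The single one without overlap was Nrros, which tethers latent TGF-beta on myeloid cells, at 354 and 308 in mutant libraries, against 369.6 and 365 in wild-type libraries.

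Of 14 Smads and their regulators, 10 had a log2 fold change below 0 (71.4%, against 49.4% of all genes). Without overlap, 3 were lower (21.4%, against 14% of all genes) and 2 higher (14.3%, against 13.4%). Smad3, a transducer of both pathways, was at 2440.2 and 2501 in mutant libraries 18 and 14, against 2915 and 2849 in wild-type libraries 15 and 20 (log2 fold change -0.22, SE 0.12). The inhibitory Smad7, itself induced by TGF-beta, was at 410.3 and 517 in mutant libraries, against 585 and 555 in wild-type libraries (log2 fold change -0.31, SE 0.17). Smad2 (1871 and 1844 in mutant libraries, against 1795 and 1712 in wild-type libraries) and Zfyve9, which presents Smads to the receptor (1332 and 1394, against 1223 and 1188), were higher in the same libraries. Adjusted p was 0.9999 with limma for each of these 4.

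Of 19 TGF-beta target genes, 12 were below 0 (63.2%, against 49.4% of all genes). Without overlap, 4 were lower (21.1%, against 14% of all genes) and 2 higher (10.5%, against 13.4%). Tgfbi, a matrix protein named for its induction by TGF-beta, was at 2633 and 2498 in mutant libraries 18 and 14, against 3116 and 3077 in wild-type libraries 15 and 20 (log2 fold change -0.27, SE 0.13). The transcription factor Snai1 was at 532 and 657 in mutant libraries, against 789.6 and 681 in wild-type libraries. A pair of cell cycle inhibitors that TGF-beta can induce lay the other way. Cdkn2b was at 97.8 and 97.1 in mutant libraries, against 59.7 and 77.2 in wild-type libraries, while Cdkn1a had 4264 and 4291 in mutant libraries, against 3986 and 3996 in wild type. For these 4 genes limma gave an adjusted p of 0.9999.

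**Figure D4:**
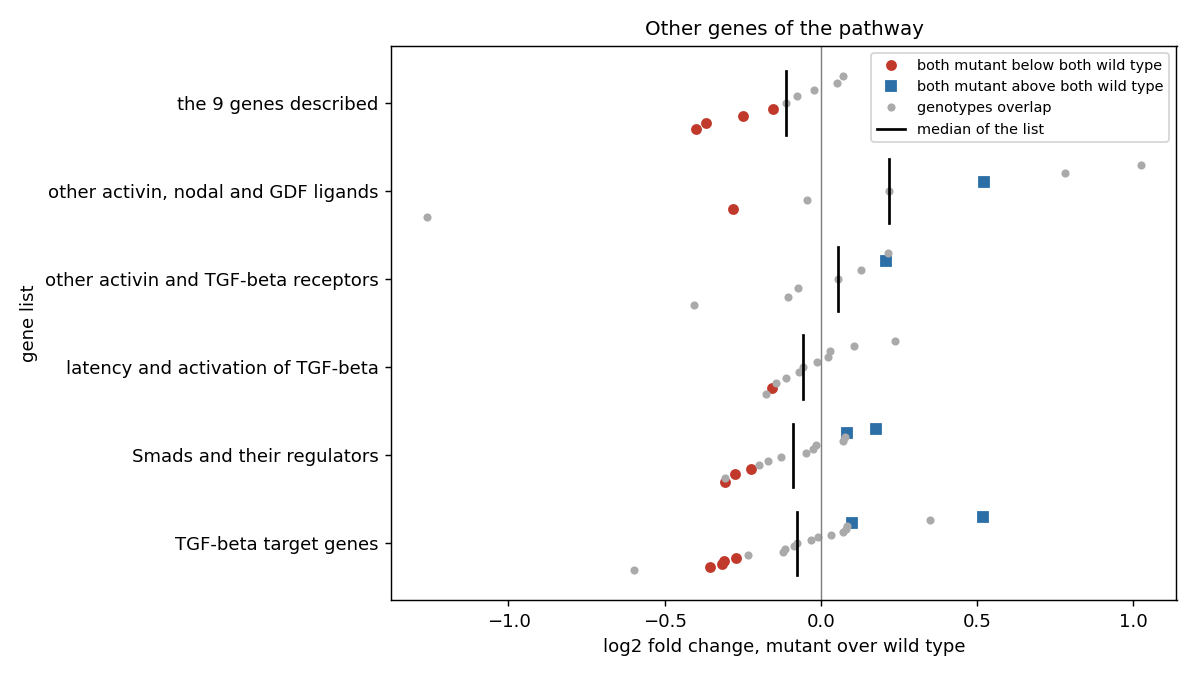
Log2 fold change, mutant over wild type (horizontal axis), of the tested genes in each list, with red circles where both mutant libraries lay below both wild-type libraries, blue squares where both lay above, grey dots where genotypes overlapped, and a black line at the median. The median is -0.11 for the 9 genes described and lies between -0.088 and 0.22 for the other lists.

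Marker genes of several tissues also separated by genotype in part, as Inhba and Tgfb1 did. The marker lists were chosen with earlier results of these data known. Their shares beside those of all genes are therefore descriptions and not independent tests. Over all tested genes, 49.4% had a log2 fold change below 0, 14% were lower without overlap in mutant and 13.4% were higher without overlap. Among skeletal lists, all 9 cartilage markers were below 0 and 6 were lower without overlap, with a summed level of 58955 and 50719 in mutant libraries 18 and 14 and of 82292 and 66261 in wild-type libraries 15 and 20. Of 12 osteoblast markers 10 were below 0 and 5 were lower without overlap, though their sums overlapped (204189 and 117417 in mutant, 175579 and 221919 in wild type). Of 8 osteoclast markers 6 were below 0 and none was without overlap (sums of 72082 and 31913 in mutant and 40559 and 61043 in wild type).

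Of 8 dental mesenchyme markers 6 were below 0, 5 were lower without overlap and 1, the transcription factor gene Tfap2b, was higher without overlap, with sums of 5179 and 5737 in mutant and 6196 and 7672 in wild type. Of 6 odontoblast and dentin markers 3 were below 0, all 3 without overlap, and 3 were above 0. Of 6 dental epithelium markers 3 were below 0, 2 of them without overlap, and 3 were above 0. Of 7 ameloblast and enamel markers 5 were below 0, 1 of them without overlap, and 2 were above 0. Over all tested genes, 49.4% were below 0 and 14% were lower without overlap.

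In 5 other lists most markers had a log2 fold change above 0 and at least 4 were higher without overlap. All 9 tested markers of upper epithelium were higher without overlap, against 13.4% of all genes. Their sums were 153630.0 and 237044 in mutant and 100597 and 88196 in wild type. All 5 melanocyte markers were higher without overlap (sums of 196 and 264 in mutant and 93.5 and 116 in wild type). Of 7 tested salivary gland markers 7 were above 0 and 4 were higher without overlap, with sums of 45.9 and 6178 in mutant and 21.7 and 4.98 in wild type. Of 7 neuron and Schwann cell markers 7 were above 0 and 4 were higher without overlap (sums of 1575 and 2492 in mutant and 1481 and 1467 in wild type). Of 9 macrophage and mast cell markers 8 were above 0 and 5 were higher without overlap (sums of 11810 and 10928 in mutant and 8387 and 9755 in wild type). In each of the other 5 lists, of skeletal muscle, endothelium, smooth muscle, platelets and erythroid cells, at most 2 markers were without overlap. Tested markers above 0 were 5 of 9 for skeletal muscle, 4 of 6 for platelets and 4 of 7 for erythroid cells. They were 3 of 7 for endothelium and 1 of 6 for smooth muscle. The platelet gene Gp6 was the single marker listed at 0 in every library.

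No gene in these lists passed after adjustment with limma, and the part of these tissues in the values of Inhba and Tgfb1 was not tested. Without mutant library 14, which held the salivary gland RNA, the log2 fold change was -0.33 for Inhba and -0.34 for Tgfb1. Leaving it out does not test the other tissues, because mutant 18 also lay apart in some of them. Its cartilage sum was 58955.5, against 82292.5 and 66261.3 in wild-type libraries 15 and 20. Its upper epithelium sum was 153630, against 100597 and 88196.5. Its osteoblast sum (204189) lay between those of wild type (175579 and 221919).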

How the data were processed

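The deposited table gives a normalized count for each gene in each library, which is a signal value. DESeq2 and build mm10 are named, with no version, in the submitters' processing notes, and a stranded poly(A) kit is named per the labels. No aligner, counter, strand setting or annotation is stated in the sources used here. Taking the commonest low value as 1 read, between 32.0% and 34.6% of values above 0 came out whole within 0.1, so reads were not recovered and depth beyond the deposited sums is unknown.

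Genes with a mean of at least 1 were kept (17979 of 24972). Genotype was fitted to log2(value + 0.5) with limma 3.58.1 (R 4.3.3), letting the variance follow a trend on the mean, and p-values were adjusted by Benjamini-Hochberg over all genes tested, with a threshold of 0.05. Fold changes are on that scale, which understates changes of low genes. Exon lengths and positions are from GENCODE M21 (GRCm38), promoters from RefSeq. Named were all 9 members, in each list up to 2 genes per direction with the smallest p among those without overlap, and the 2 genes nearest to each member. Members and lists were chosen with earlier results of these data known. Alternatives covered scaling (trimmed mean of M values, or equal totals), filter, pseudocount, variance model, weights and each library left out.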

Additional observations from a re-analysis of the deposited data

How the results depend on the processing

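No member and no other pathway gene passed under any of the 13 alternatives. The count of called genes over the whole table was 2, and it was 1 without a filter, 4 with pseudocount 1, 1 without the mean-variance trend, 4 with robust shrinkage, and between 0 and 5 with each library left out. Members with a log2 fold change below 0 numbered 6 or 7 throughout. With each library left out, Inhba ranged from -0.47 to -0.33 and Tgfb1 from -0.40 to -0.33, with unadjusted p between 0.0356 and 0.0871 and between 0.046 and 0.0768. Without the mean-variance trend their unadjusted p was 0.0538 and 0.0588. The direction turned for Fst without mutant 18 (0.13), Fstl3 without mutant 14 (-0.078) and Tgfbr1 without mutant 14 (0.18); the cause was not tested. Other pathway genes below 0 numbered 24 without wild type 15 and 42 without wild type 20, against 35 with all libraries. Leaving out a library leaves 1 residual degree of freedom, and a lone library is assumed to vary like the others. No paired analysis was possible because the library numbers are not shared between genotypes.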

Other observations

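Some pathway genes outside the naming rule, chosen after their values were seen, varied between libraries of the same genotype. Timp1, an inhibitor of matrix metalloproteinases that TGF-beta can induce, was at 1599 and 920 in mutant libraries 18 and 14, against 1459 and 2312 in wild-type libraries 15 and 20. Bambi, a decoy receptor, was at 1669.7 and 1372 in mutant and at 1649.5 and 2128 in wild type. Gdf1 was at 23.4 and 52.8 in mutant and at 193 and 37.1 in wild type. All 3 overlapped between genotypes.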
